A study of Danio rerio with 96 samples.

Results

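Bisulfite amplicon sequencing reads whatever its primers amplify, and 32 regions outside the 8 target amplicons were covered in many of the zebrafish libraries described here. They were chosen by coverage: CpGs outside the target spans were kept where 10 or more of the 96 libraries had 30 or more reads, and CpGs up to 100 bp apart were joined into a region. The rule left 124 off-target CpGs, out of 174 CpGs that reached this depth anywhere and 1853 off-target CpGs that reached it in at least 1 library. Coverage is therefore described without a test, and methylation levels were not used to choose the regions.

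The libraries were made from heads of zebrafish (Danio rerio) larvae at 5 days post-fertilisation (dpf), in 4 groups of 24: glucocorticoid receptor (GR) mutant larvae given 100 µM betamethasone, GR mutant larvae given the 0.2% ethanol control, wild-type larvae given 100 µM betamethasone, and wild-type larvae given the 0.2% ethanol control. The labels do not name the GR allele. DNA was treated with bisulfite and 100 pg of it was amplified over 40 cycles by primers holding 25 to 30 bases of target sequence, followed by a barcoding PCR and sequencing of 150 bp read pairs. The labels do not say that libraries of a group came from separate clutches or extractions, so p-values measure the spread between these libraries.

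In vertebrate genomes most CpGs carry a methyl group on the cytosine, and unmethylated CpGs concentrate in promoters and other regulatory DNA. Bisulfite turns unmethylated cytosine into uracil, read as T, while methylated cytosine is still read as C; the methylation level is the share of reads that kept the C. The GR is a transcription factor that is activated by glucocorticoid hormones, and betamethasone is a synthetic glucocorticoid.

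The regions lay on 19 chromosomes and are named by chromosome and a letter in order of position, in build GRCz10. Each region had CpGs on 1 strand only, 17 on the minus strand and 15 on the plus strand. A single CpG made up 11 regions, and 6 regions had 10 or more CpGs. Gene annotation of this build was not used here, so no region is assigned to a gene, exon or intron.

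The 6 regions with 10 or more CpGs resembled 1 target, the amplicon on chromosome 15 near 4.08 Mb. Their sequences, as far as the cytosine calls give them, are shown because the placement of cytosines is what ties them to this target. Letters are the bases given by the calls on the sequenced strand, 5′ to 3′, capitals mark CpGs, and n marks a base that the calls do not give. The amplicon spans chr15:4079178-4079404 on the plus strand. The amplicon of chromosome 2, chr2:14499687-14499886 on the minus strand, is shown too because it has the same start and a related pattern. The members are chr7a at chr7:35168942-35169152 (plus strand), chr9d at chr9:27415265-27415475 (minus), chr20a at chr20:21908707-21908911 (minus), chr9b at chr9:16020482-16020647 (minus) and chr15a at chr15:11620367-11620578 (minus). The sixth, chr13b at chr13:32058288-32058498 (minus), had the same letters as chr9d.
chromosome 15 amplicon: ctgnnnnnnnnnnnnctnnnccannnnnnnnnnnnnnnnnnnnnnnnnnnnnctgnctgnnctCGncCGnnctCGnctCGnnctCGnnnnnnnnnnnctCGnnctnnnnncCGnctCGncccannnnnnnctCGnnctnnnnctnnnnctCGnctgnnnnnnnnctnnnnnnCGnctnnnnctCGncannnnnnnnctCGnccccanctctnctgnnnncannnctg
chromosome 2 amplicon: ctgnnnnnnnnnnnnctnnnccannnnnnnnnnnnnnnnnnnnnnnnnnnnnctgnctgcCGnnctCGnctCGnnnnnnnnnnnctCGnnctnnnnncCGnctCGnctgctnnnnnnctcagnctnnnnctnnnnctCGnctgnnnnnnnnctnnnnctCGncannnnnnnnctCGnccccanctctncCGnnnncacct
chr7a: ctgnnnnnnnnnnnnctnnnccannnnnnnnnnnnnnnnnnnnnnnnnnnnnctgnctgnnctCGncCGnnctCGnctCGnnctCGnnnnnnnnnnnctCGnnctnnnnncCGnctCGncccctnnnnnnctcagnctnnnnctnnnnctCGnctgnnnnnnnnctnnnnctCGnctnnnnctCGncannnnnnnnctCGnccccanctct
chr9d: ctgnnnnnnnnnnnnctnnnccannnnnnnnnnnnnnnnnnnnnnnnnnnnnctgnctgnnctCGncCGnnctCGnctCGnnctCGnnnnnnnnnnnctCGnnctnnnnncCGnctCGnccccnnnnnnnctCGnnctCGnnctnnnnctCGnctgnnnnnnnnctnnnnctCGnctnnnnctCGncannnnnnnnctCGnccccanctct
chr20a: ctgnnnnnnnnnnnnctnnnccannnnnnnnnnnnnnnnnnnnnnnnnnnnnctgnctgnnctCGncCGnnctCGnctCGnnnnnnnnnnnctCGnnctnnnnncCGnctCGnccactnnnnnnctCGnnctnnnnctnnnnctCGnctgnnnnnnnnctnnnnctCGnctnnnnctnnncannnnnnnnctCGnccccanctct
chr9b: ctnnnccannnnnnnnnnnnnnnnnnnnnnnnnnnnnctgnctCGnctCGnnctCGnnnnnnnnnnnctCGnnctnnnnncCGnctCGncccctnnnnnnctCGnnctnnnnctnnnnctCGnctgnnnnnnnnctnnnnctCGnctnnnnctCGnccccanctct
chr15a: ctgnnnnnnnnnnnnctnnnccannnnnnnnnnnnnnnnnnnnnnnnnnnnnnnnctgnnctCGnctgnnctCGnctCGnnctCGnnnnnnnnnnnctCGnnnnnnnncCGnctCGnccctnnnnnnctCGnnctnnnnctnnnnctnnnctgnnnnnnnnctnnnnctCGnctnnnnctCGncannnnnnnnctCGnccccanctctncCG

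Base for base from the 5′ end, 47 of the 49 listed cytosines of chr7a stood where the chromosome 15 amplicon has a listed cytosine. In chr9d and chr13b 46 of 48 did. The other 3 regions were placed at the offset that gave the highest count, 6 bp for chr20a, 30 bp for chr9b and 3 bp for chr15a. In chr20a the count was 34 of 45, and 43 of 45 once a single 6 bp shift within the region was allowed. With 1 shift of 15 bp chr9b reached 35 of 40 (30 without it), and with 1 of 2 bp chr15a reached 37 of 46 (29 without it). Shifts of up to 30 bp were searched for the highest count. Among the 15 members with at least 20 listed cytosines, these 6 and chr15c passed a limit of 80%, and the other 8 reached at most 66.7% with a shift. The chromosome 15 and chromosome 2 amplicons resemble each other: 34 of the 50 listed cytosines of the chromosome 15 amplicon stood on one of the chromosome 2 amplicon with 1 shift. Against the chromosome 2 amplicon with 1 shift, chr7a reached 35 of 49, chr9d and chr13b 34 of 48, chr20a 37 of 45, chr9b 31 of 40 and chr15a 29 of 46, fewer in each case than against the chromosome 15 amplicon.

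The listed cytosines of chr15c, at chr15:42870371-42870475 on the plus strand, matched the chromosome 8 amplicon instead, at 27 of 33 positions, and at 29 of 33 with 1 shift. The matching part of that amplicon, chr8:22488805-22488908 on the plus strand, is shown above chr15c. Of its pair of CpGs, the first is shared with the amplicon and the second is not.
chromosome 8 amplicon, from base 106: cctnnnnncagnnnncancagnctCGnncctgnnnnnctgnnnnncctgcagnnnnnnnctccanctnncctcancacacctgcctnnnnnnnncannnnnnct
chr15c: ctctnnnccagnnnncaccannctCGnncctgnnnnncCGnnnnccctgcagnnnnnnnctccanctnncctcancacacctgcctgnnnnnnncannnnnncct

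Some members without a full match also began like these amplicons. In their first 25 bases the chromosome 15 and chromosome 2 amplicons have the same 4 listed cytosines, and 7 members had exactly these 4. Besides chr7a, chr9d, chr13b, chr15a and chr20a they were chr13c (chr13:47132728-47132752, plus strand) and chr25a (chr25:14102774-14102798, plus). Another 3 members had 3 of the 4 and no other: chr20b (chr20:44042868-44042892, plus), chr21a (chr21:19809615-19809639, minus) and chr25b (chr25:18829005-18829029, plus). The first 25 bases are given because the primer sequence is of this length.
chromosome 15 amplicon, first 25 bases: ctgnnnnnnnnnnnnctnnnccann
chr13c, first 25 bases: ctgnnnnnnnnnnnnctnnnccann
chr25a, first 25 bases: ctgnnnnnnnnnnnncannnccann
chr20b, first 25 bases: ctgnnnnnnnnnnnnctnnncannn
chr21a, first 25 bases: ctgnnnnnnnnnnnnctnnnctnnn
chr25b, first 25 bases: ctgnnnnnnnnnnnnctnnnctgnn

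At 4 members the calls spanned no more than 25 bp, against 74 to 216 bp at the rest. They were chr2a (19 bp), chr6a (25 bp), chr8a (23 bp) and chr9a (22 bp), lengths at or below that of the target part of a primer. Of the 7 listed cytosines of chr9a, 6 stood where the first bases of the chromosome 3 amplicon have one. Whether these calls read primer bases was not tested. The chromosome 3 stretch is chr3:25887983-25888007 on the plus strand. The 4 members are on the minus strand, chr9a at chr9:5945242-5945264, chr6a at chr6:29777987-29778012, chr2a at chr2:11152179-11152199 and chr8a at chr8:36390212-36390235.
chromosome 3 amplicon, first 25 bases: cagctgnnnnnncanctgctgCGnn
chr9a: cagctgnnnnnncancCGctgCG
chr6a: ctgcagctgnnnnnncannCGctgCG
chr2a: cagctgnnnnnncannCGctg
chr8a: CGnCGcCGcctnnnnncacancCG

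Most off-target regions were methylated in most reads. By mean level over libraries, 10 regions were at 95% or more, 16 between 60% and 95%, 2 between 40% and 60%, and 4 at 5% or less. The 4 lowest were the 4 short ones, chr2a, chr6a, chr8a and chr9a. Over all 589 values of a region in a library, 37.0% were at 99% or more and 10.0% at 1% or less, with a median of 91.1%. In the 8 target amplicons 1.85% of 704 values were at 99% or more and 0.0% at 1% or less, with a median of 68.8%.

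At single CpGs the off-target values were close to all or none. Of 2685 off-target values of a CpG in a library, 67.9% were at 95% or more, 13.2% at 5% or less and 18.8% in between. In the amplicons 72.7% of 4505 values were in between, 22.2% at 95% or more and 5.13% at 5% or less. The depth behind an off-target value was lower, with a median over regions of 91.75 reads per CpG against 996.25 in the amplicons. The 95% Wilson interval of a region's level, taken on its reads per CpG, had a median half-width of 4.42 percentage points over the 589 values and ranged from 0.0240 to 16.8. No molecular identifiers mark the PCR copies, so these intervals cover counting error only.

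**Figure D1:**
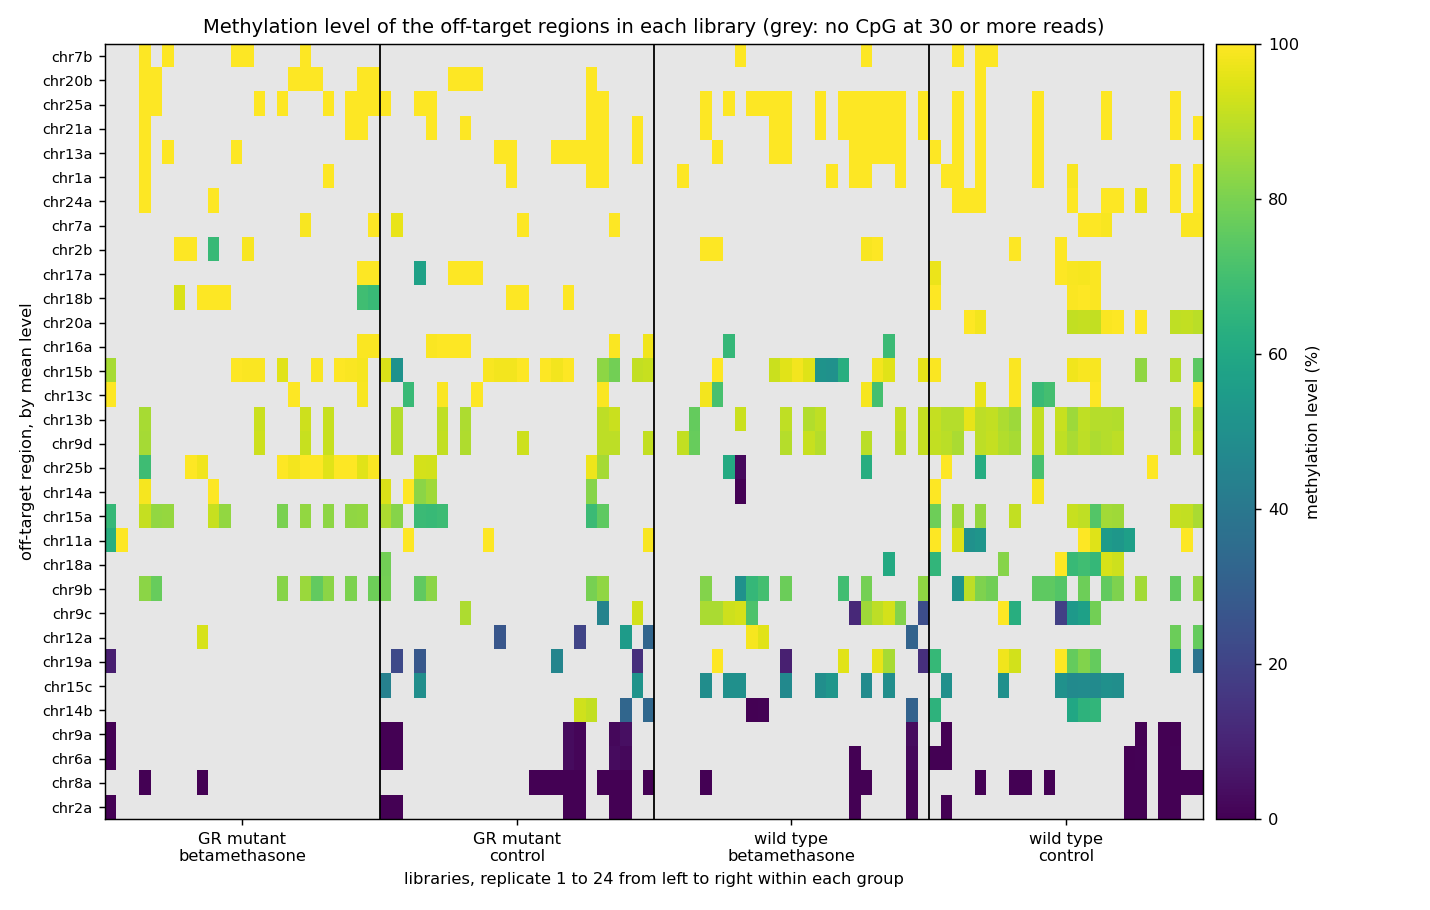
Methylation level (%, colour) of the 32 off-target regions (rows) in the 96 libraries (columns, by group); blank cells had no CpG with 30 reads. Most filled cells are near 100%, 4 rows are near 0%, and each row is filled in 10 to 41 libraries.

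The fully methylated end was made up of regions such as chr25a, chr21a and chr13a. chr25a, a single CpG at chr25:14102895, lay between 99.9% and 100.0% in its 32 libraries, with a mean of 100.0% ± 0.0128 (SD, n = 32). chr21a, a single CpG at chr21:19809524, was at or above 99.9% in all 25 libraries that covered it. chr13a, a pair of CpGs at chr13:3969601-3969626, averaged 100.0% ± 0.0306 (SD, n = 23). These 3 had the smallest spread between libraries among the 12 members with 20 or more libraries. The deepest values at chr25a and chr21a held 8000 and 8007 reads, while their medians were 49.5 and 47.0 reads.

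At the unmethylated end the spread was small in chr8a and chr2a and larger in chr6a and chr9a. In chr8a (4 CpGs, chr8:36390213-36390235) the level was 0.0291% ± 0.0699 (SD, n = 25), and 0 of 6312 reads were methylated at position 36390235, which allows a level of up to 0.0475%. chr2a, with a CpG at 11152183, averaged 0.0224% ± 0.0838 (SD, n = 14). chr6a averaged 0.872% ± 1.12 (SD, n = 15) and chr9a 1.11% ± 1.46 (SD, n = 12). In chr6a and chr9a the methylated reads came mostly from the CpG nearest the 3′ end, with 2.38% of 2182 reads at 29777988 and 2.69% of 2011 reads at 5945243. At the other CpG of chr6a, 29777993, 0 of 2182 reads were methylated, which allows up to 0.137%. Both limits pool reads over libraries and cover counting error only, since PCR copies are not marked.

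Of the 124 off-target CpGs, 71 had a mean of 95% or more, 39 lay between 5% and 95%, and 14 were at 5% or less, 11 of them at 1% or less. Of the 14 low CpGs, 9 lay in the 4 short regions and 5 in longer ones. The 5 were 11620368 at a listed end of chr15a, 42870395 in chr15c, and interior CpGs of chr9b, chr9d and chr13b.

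The 6 regions like the chromosome 15 amplicon were far more methylated than that amplicon in the same libraries, at CpGs aligned by their cytosines. At its 12 aligned CpGs chr7a averaged 99.3% ± 0.951 (SD, n = 10) against 51.6% ± 16.1 in the amplicon, and was higher in 10 of 10 libraries. chr20a averaged 94.6% ± 4.62 (SD, n = 11) against 47.7% ± 9.51 and was higher in 11 of 11. chr9d averaged 96.3% ± 2.88 (SD, n = 35) against 52.3% ± 18.0 and was higher in 35 of 35.

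Of the other 3 members, chr13b was close to chr9d, and chr15a and chr9b gave smaller and less regular differences. chr13b averaged 96.2% ± 3.10 (SD, n = 33) against 52.6% ± 18.3 in the amplicon and was higher in 33 of 33 libraries. chr15a averaged 87.7% ± 10.7 (SD, n = 30) against 58.1% ± 20.4 and was higher in 25 of 30. chr9b averaged 77.2% ± 8.25 (SD, n = 34) against 53.5% ± 17.8 and was higher in 27 of 34. Both sides of each comparison come from the same library and similar sequence, and whether reads of one copy were assigned to the other was not tested. Median depth was 56.8 to 190.4 reads per CpG in the members, against 8019.0 to 8028.9 in the amplicon. The amplicon depth was thus nearly the same in every set of libraries, and the deepest values at chr25a and chr21a, 8000 and 8007 reads, lay close to it. Whether the deposited counts were limited near this depth was not tested.

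Beside the chromosome 2 amplicon, chr7a, chr9d, chr13b and chr20a differed far less, and chr9b was lower. At 7 aligned CpGs chr7a averaged 99.4% ± 1.46 (SD, n = 10) against 94.9% ± 3.54 in the chromosome 2 amplicon of the same libraries, and was higher in 10 of 10. chr9d averaged 96.6% ± 3.54 (SD, n = 35) against 92.8% ± 6.24 and was higher in 26 of 35, and chr13b averaged 96.4% ± 3.72 (SD, n = 33) against 92.6% ± 6.39 and was higher in 25 of 33. At 9 aligned CpGs chr20a averaged 93.4% ± 5.63 (SD, n = 11) against 93.5% ± 4.28 and was higher in 5 of 11. At 8 aligned CpGs chr9b averaged 73.02% ± 9.62 (SD, n = 34) against 92.3% ± 7.37 and was higher in 0 of 34. These 8 include 16020561, at 0.00286% in chr9b, where the chromosome 2 amplicon averaged 93.9% over its 90 libraries. The difference without this CpG was not computed. chr15a averaged 60.9% ± 23.5 (SD, n = 30) against 61.1% ± 11.6 at 4 aligned CpGs, of which 1 was near 0 in both and 2 were placed on the same CpG of the amplicon. The chromosome 15 amplicon itself averaged 53.4% ± 18.9 (SD, n = 90) against 90.9% ± 7.28 in the chromosome 2 amplicon at 9 aligned CpGs. These means come from different sets of CpGs and are not ranked.

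Of the 73 CpGs of the 6 regions, 68 aligned with a CpG of the chromosome 15 amplicon and 66 of these had the higher mean. Over single libraries the off-target CpG was higher in 1571 of 1714 pairs. These counts hold both chr9d and chr13b, with 13 aligned CpGs each, although their reads cannot be told apart. The 68 CpGs, the pairs and the values of the 6 regions below are therefore not all independent. The median of the 68 means was 97.5%, against 51.7% for the aligned amplicon CpGs. The amplicon was intermediate in nearly every library, with 97.4% of its 1235 CpG values between 5% and 95%, whereas 20.1% of the 1871 values of the 6 regions were in between, 72.0% at 95% or more and 7.86% at 5% or less.

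A few CpGs of these regions broke the pattern. Of the 5 CpGs with no CpG opposite them in the chromosome 15 amplicon, 3 were at 1% or less: 27415337 in chr9d at 0.0765% (n = 35), its counterpart 32058360 in chr13b at 0.0568% (n = 32), and 11620368 in chr15a at 0.00469% (n = 30). The last of these aligned with position 14499697 of the chromosome 2 amplicon, which was also near 0, at 0.00843% ± 0.0272 (SD, n = 90). Both lie within the length of a primer from a listed end. Position 11620368 is 0 bp from that of chr15a, and the listed cytosines of the chromosome 2 amplicon end at 14499688. Whether the calls at these 2 positions read primer bases was not tested. A CpG of chr9b that does align, 16020561, was at 0.00286% (n = 34), where the CpG of the chromosome 15 amplicon averaged 45.5% in the same libraries, that of the chromosome 2 amplicon 93.9% over its 90 libraries, and the CpG 5 bases away in chr9b, 16020566, averaged 100.0% ± 0.188 (SD, n = 34). In chr20a position 21908833 averaged 46.1% ± 49.8 (SD, n = 11), while its other 10 CpGs averaged from 97.4% to 100.0%.

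**Figure D2:**
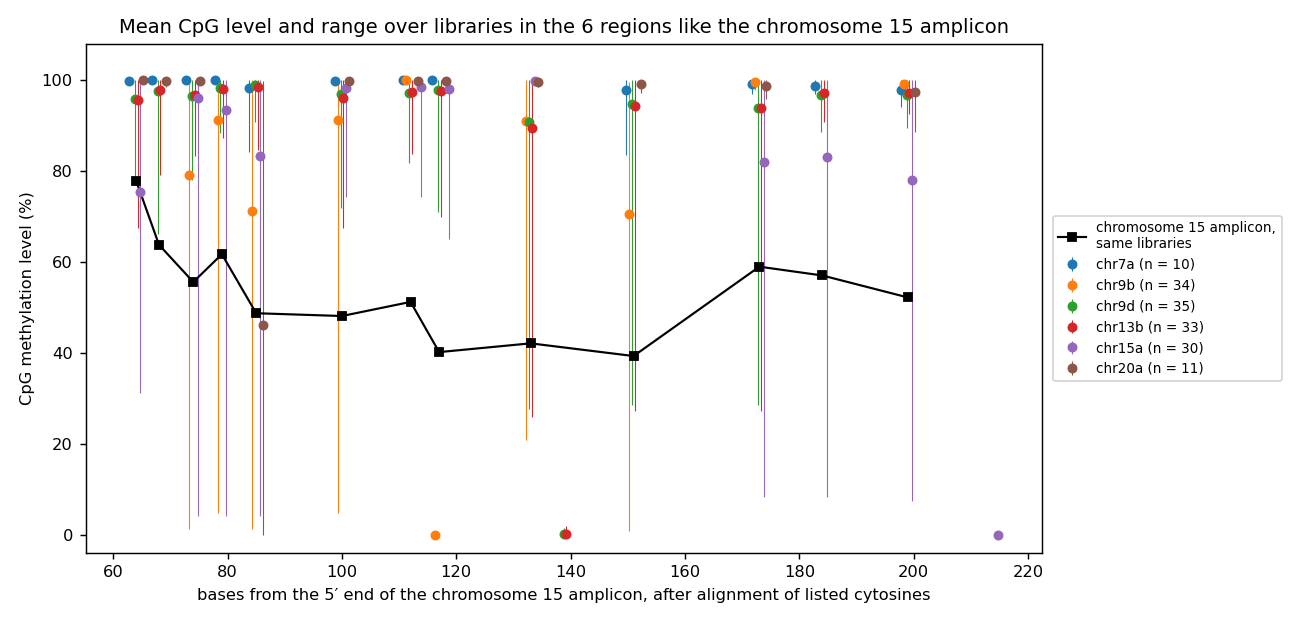
Mean methylation level (%) of each CpG of the 6 regions like the chromosome 15 amplicon (coloured points, with vertical lines for the lowest and highest library) and of the amplicon in the same libraries (black line), by aligned base from the amplicon's 5′ end. Nearly all coloured points lie above the black line, and the 4 points near 0% are the CpGs of chr9b, chr9d, chr13b and chr15a named in the text.

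The regions chr9d and chr13b cannot be told apart by these data. Their listed cytosines were the same at 48 of 48 positions, and 31 libraries covered both. In those libraries their levels differed by a median of 0.544 percentage points and at most by 3.33, with 30 of 31 within 2 points. The ratio of their reads, chr9d as the divisor, had a median of 0.981 and ranged from 0.655 to 1.38. Both are reported as uncertain copies of 1 signal, and a value at one is no support for the other. chr9d averaged 89.4% ± 2.68 (SD, n = 35) over all its 14 CpGs, and chr13b 89.5% ± 3.15 (SD, n = 33).

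In chr15c the pair of CpGs 14 bp apart had opposite levels. The CpG at 42870395, which the chromosome 8 amplicon shares, averaged 2.67% ± 5.66 (SD, n = 19), and the CpG at 42870409 averaged 95.7% ± 7.99 (SD, n = 19). In the same 19 libraries the shared CpG averaged 44.0% in the chromosome 8 amplicon, and chr15c was higher in 0 of 19. The region's level of 49.2% ± 1.80 (SD, n = 19) is thus a mean of an almost unmethylated and an almost fully methylated CpG. The low CpG lies 24 bp from the region's listed 5′ end, within the length of a primer.

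Non-CpG cytosines are a check on conversion, since they are mostly unmethylated in vertebrates. Pooled over regions, 0.718% of the reads at 617 non-CpG cytosines were called methylated, against 1.04% in the amplicons. By region the median was 0.252%, with a range from 0.00403% to 5.10%. A few positions held most of it: 28 of the 617 were at 5% or more, in 13 regions.

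Some of these positions stood out from their aligned place in the chromosome 15 amplicon. In chr9d the non-CpG cytosine at 27415356 averaged 86.9% (n = 35), against 15.0% at the amplicon's aligned cytosine, and in chr13b position 32058379 averaged 88.7% (n = 33) against 15.2%. In chr7a position 35168998 averaged 51.5% (n = 10) against 1.51%, and in chr20a position 21908769 averaged 53.1% (n = 11) against 1.39%. In chr7a the cytosine at 35169074, followed by A in the build, averaged 36.6% (n = 10) where the amplicon has a CpG at 47.1%. Libraries at both ends of the scale made up these means, from 0.0% to 99.6% at 35168998 and from 0.0% to 100.0% at 21908769.

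Between libraries, the levels of regions such as chr19a, chr9c and chr25b differed widely. The single CpG of chr19a, at chr19:7261359, averaged 60.2% ± 34.7 (SD, n = 20). It read 8.44% in the 1 GR mutant betamethasone library that covered it and 22.1%, 27.5%, 45.5% and 13.6% in 4 GR mutant control libraries. In wild-type betamethasone libraries the lowest, median and highest were 8.70%, 91.3% and 100.0% (n = 6), and in wild-type control libraries 38.1%, 76.5% and 100.0% (n = 9). The wild-type betamethasone libraries split into 2 at or below 13.6% and 4 at or above 87.1%. With 1 and 4 GR mutant libraries, chr19a was too thinly covered for a test by genotype.

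chr9c (chr9:22956520, 1 CpG) averaged 70.7% ± 27.2 (SD, n = 20). It read 87.5%, 44.7% and 93.3% in 3 GR mutant control libraries. The lowest, median and highest were 11.6%, 87.1% and 93.5% in wild-type betamethasone libraries (n = 11) and 18.9%, 59.7% and 100.0% in wild-type control libraries (n = 6). Single low libraries were thus present in both wild-type groups.

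chr25b (chr25:18829111, 1 CpG) averaged 86.2% ± 23.1 (SD, n = 23). The lowest, median and highest were 68.8%, 99.5% and 100.0% in GR mutant betamethasone libraries (n = 12), while GR mutant control libraries read 93.5%, 93.1%, 97.3% and 86.4%. Wild-type betamethasone libraries read 61.0%, 2.43% and 62.3%, and wild-type control libraries read 100.0%, 61.9%, 71.0% and 100.0%. With 3 and 4 wild-type libraries no comparison was made.

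chr15b (chr15:20076330-20076378, 2 CpGs) was covered most often, in 41 libraries, and averaged 91.2% ± 13.9. Its spread came from 1 of its CpGs: position 20076330 averaged 99.01% ± 2.71 (SD, n = 41) and position 20076378 averaged 83.3% ± 27.6. At 20076378 wild-type betamethasone libraries 15 and 16 read 3.26% and 1.43%, and GR mutant control library 2 read 2.60%, while the median over the 41 libraries was 96.9%.

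**Figure D3:**
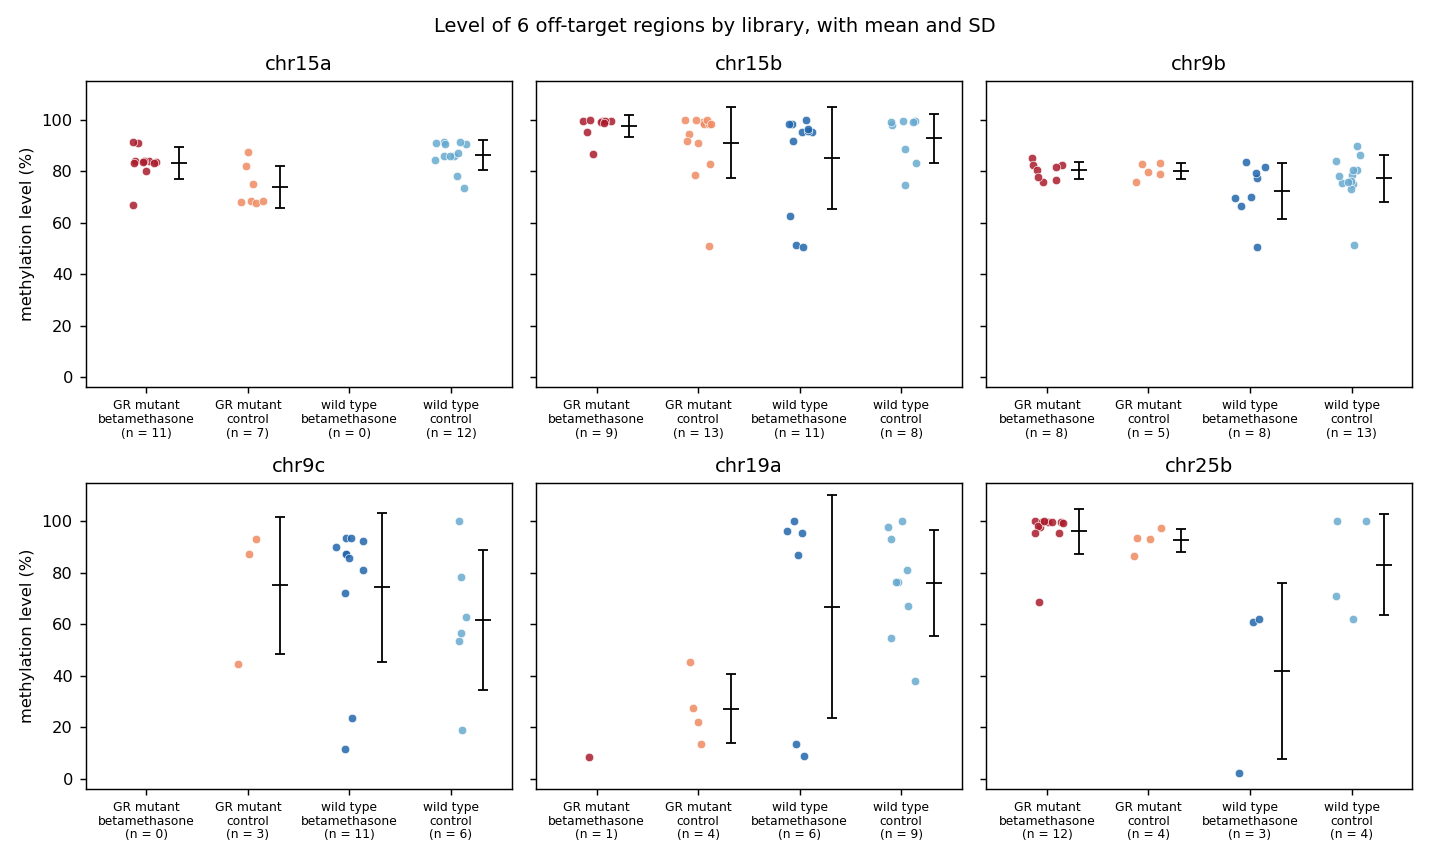
Methylation level (%) of 6 off-target regions in each library that covered them, by group, with the mean and SD where a group has more than 1 library. chr19a, chr9c and chr25b hold single libraries far from their group, and chr15a is lower in GR mutant control libraries than in wild-type control libraries.

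Coverage was uneven. A library covered a median of 5.5 of the 32 regions and at most 16, with 4 libraries covering none. The shares of CpG calls given next count the 124 CpGs of these regions only, and calls at other CpGs outside the amplicons are left out. In GR mutant betamethasone libraries the median was 4 regions and 1.75% of all CpG calls, and in GR mutant control libraries 6 regions and 1.80%. In wild-type betamethasone libraries it was 5.5 regions and 2.55%, and in wild-type control libraries 9 regions and 4.90%. The highest share, 28.5%, was in a wild-type control library. Total calls per library had a median of 1227600.5 and ranged from 19 to 2009599.

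Libraries with neighbouring replicate numbers shared more regions. Of the regions covered by either library of a pair, the median share covered by both was 25.0% over 86 pairs with neighbouring numbers in 1 group, 12.5% over 928 other pairs of a group and 9.09% over 3172 pairs across groups. What neighbouring numbers have in common is not stated in the labels. Over the amplicon CpGs, 0 of 1081 pairs of libraries of a group agreed within sampling noise, so no library appeared to be a repeat deposit of another. chr20a was covered in wild-type control libraries alone, and chr15a in no wild-type betamethasone library.

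At the limit of the rule, 27 off-target CpGs were covered in exactly 10 libraries and 27 in exactly 9. The first had mean levels from 49.8% to 100.0% with a median of 99.2%, and the second from 0.0% to 100.0% with a median of 66.0%. Just inside the limit, chr7a read 99.1% and 100.0% in its GR mutant betamethasone libraries, 96.8%, 100.0% and 100.0% in its GR mutant control libraries, and 99.8%, 99.8%, 99%, 99.5% and 99.2% in its wild-type control libraries.

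Groups were compared where a region had at least 5 libraries in each. This held for 14 regions in 27 tests, and for 3 regions, chr15b, chr25a and chr9b, in all 4 comparisons. The test was a two-sided exact permutation test of the difference of mean levels (100000 resamples where both groups had 10 or more libraries, as at the amplicons), with Benjamini-Hochberg adjustment over every region of a comparison, amplicons included. The comparisons share groups with each other: each control group enters 2 of them, as does each betamethasone group. The values of the 2 groups overlapped in each of the 27 tests. Some tested regions, such as chr25a, chr21a, chr2a and chr8a, lay near the highest or lowest possible level, and chr9d and chr13b are counted separately. The counts below are therefore not counts of independent regions that were equally able to differ. For unadjusted p-values, the beta-binomial and quasi-binomial tests and other settings, the share over all regions or CpGs was not counted. Amplicons too had an unadjusted permutation p below 0.05 in each comparison. Counts without that share are therefore not read as a result about the off-target regions.

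Between betamethasone and control libraries of wild-type larvae, none of the off-target regions passed the test: 0 of 10 regions had an adjusted p of at most 0.05, where 16.7% of all 18 regions tested, amplicons included, were called. At an unadjusted p below 0.05 the count was also 0, a beta-binomial test called 0 and a quasi-binomial test weighted by reads called 2. The median absolute difference of the 10 regions was 0.803 percentage points, against 3.01 over all regions tested. The 10 include chr21a and chr25a, at 100.0% in both groups, and both chr13b and chr9d, at -0.847 and -0.758 points, whose reads cannot be told apart. A group held 5 to 17 libraries at these regions and 15 to 24 at the amplicons. The largest differences were 12.6 points at chr9c (74.4% ± 28.8, n = 11, against 61.8% ± 27.1, n = 6; SE 14.1; adjusted exact permutation p = 0.792), -9.22 points at chr19a (66.9% ± 43.4, n = 6, against 76.1% ± 20.5, n = 9; SE 19.0; adjusted exact permutation p = 0.792) and -7.67 points at chr15b (85.02% ± 19.7, n = 11, against 92.7% ± 9.42, n = 8; SE 6.82; adjusted exact permutation p = 0.727).

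At single CpGs of the wild-type comparison 2 of 47 were called, where 14.4% of all 97 CpGs tested were. Position 20076330 of chr15b was 3.15 points higher with betamethasone (100.0% ± 0.0536, n = 11, against 96.8% ± 5.35, n = 8; SE 1.89; adjusted exact permutation p = 0.0104), with all 11 treated libraries above the control median. Position 16020545 of chr9b was lower by 25.9 points (71.7% ± 34.0, n = 8, against 97.6% ± 2.66, n = 13; SE 12.1; adjusted exact permutation p = 0.0478). Betamethasone libraries 9, 10 and 17 read 34.1%, 20.8% and 38.6% there, and the other 5 read from 93.5% to 100.0%. At 20076330 of chr15b, wild-type control library 24 read 83.9% on 56 reads, and the other control libraries read from 97.1% to 100.0%. Called CpGs in this comparison numbered 0 with a minimum of 100 reads, which left 2 off-target CpGs to test, 0 without libraries above 2% non-CpG calls and 1 by the beta-binomial test.

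Between betamethasone and control libraries of GR mutant larvae, 0 of 4 off-target regions were called by the permutation test, and 0.0% of all 12 regions tested were. At an unadjusted p below 0.05 the count was 1, and both the beta-binomial and the quasi-binomial test called 0. The differences were 9.33 points at chr15a (83.2% ± 6.36, n = 11, against 73.8% ± 8.05, n = 7; SE 3.597; exact permutation p = 0.0166, adjusted p = 0.190), 6.54 at chr15b (97.5% ± 4.25, n = 9, against 91.0% ± 13.8, n = 13; SE 4.09; adjusted exact permutation p = 0.379), 0.245 at chr9b (80.3% ± 3.24, n = 8, against 80.05% ± 3.11, n = 5; SE 1.80; adjusted exact permutation p = 0.970) and 0.0 at chr25a, where all 13 libraries were at 100.0%. Without GR mutant control library 1 the difference at chr15a was 11.6 points with an adjusted permutation p of 0.0223, and without GR mutant betamethasone library 1 it was 10.9 points with an adjusted permutation p of 0.0235. With libraries whose counts matched within sampling noise averaged to 1 value, an alternative chosen after seeing the data, it was 3.52 points (5 against 4 values; exact permutation p = 0.571, adjusted p = 0.705). The 5 against 4 values have 126 splits, too few for an adjusted p of 0.05 here, so that test could not call chr15a. Matching was judged on the counts at chr15a itself.

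Of 23 off-target CpGs tested in the GR mutants 4 were called, all in chr15a, where 9.59% of all 73 CpGs tested were. At 11620383, 11620398 and 11620409, which lie within 27 bp, betamethasone libraries were higher by 55.3, 60.1 and 60.7 points (adjusted exact permutation p = 0.0182, 0.00803 and 0.00688). All 11 betamethasone libraries lay above the control median at each, with 97.2% ± 3.74 against 36.5% ± 35.7 (n = 7; SE 13.6) at 11620409. At 11620495 they were lower by 31.1 points (64.8% ± 25.7, n = 11, against 95.8% ± 4.76, n = 7; SE 7.94; adjusted exact permutation p = 0.0429). The region's level thus combined CpGs that differed in opposite directions. With a minimum of 100 reads 0 of the 14 off-target CpGs still tested were called.

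Between control libraries of GR mutant and wild-type larvae, chr15a was lower in the mutants, the only region called in any of the 27 tests. The GR mutant control libraries 1, 2, 4, 5, 6, 19 and 20 read 87.6%, 81.9%, 68.3%, 67.5%, 68.4%, 68.1% and 75.1%. Wild-type control libraries had a lowest, median and highest level of 73.3%, 86.6% and 91.5% (n = 12). Most mutant libraries lay below the lowest wild-type one, and the groups overlapped through mutant libraries 1, 2 and 20. The mean was 73.8% ± 8.05 (SD, n = 7) in GR mutants against 86.3% ± 5.66 (SD, n = 12) in wild type, which differ by -12.4 points with an SE of 3.45 (exact permutation p = 0.00151, adjusted p = 0.00679). This was 1 of 10 off-target regions called, where 22.2% of all 18 regions tested were, and 2 of 10 had an unadjusted p below 0.05.

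The called CpGs of chr15a were 3 neighbours, and their low levels sat in a few libraries. At 11620516 the GR mutant control libraries were higher, at 92.2% ± 4.82 (SD, n = 7) against 73.8% ± 28.4 (SD, n = 12), which was not called. The region's level thus combined CpGs that differed in opposite directions here too. At 11620409 GR mutant control libraries 4, 5, 6 and 19 read 8.66%, 8.37%, 12.5% and 11.2%, and libraries 1, 2 and 20 read 94.9%, 73.6% and 46.0%. Wild-type control libraries read from 46.4% to 100.0% there. The differences at 11620383, 11620398 and 11620409 were -46.5, -55.8 and -58.1 points (adjusted exact permutation p = 0.0380, 0.00324 and 0.00315), and these were the 3 of 59 off-target CpGs called, where 16.5% of all 109 CpGs tested were. At 11620409 the means were 36.5% ± 35.7 (SD, n = 7) in GR mutant and 94.6% ± 15.3 (SD, n = 12) in wild-type control libraries, with an SE of 14.2.

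Over the CpGs of chr15a the counts of GR mutant control libraries 4, 5, 6 and 19 matched within sampling noise by a chi-square test. The same libraries differed at the amplicons. Likeness at each single CpG was not tested. Matching at chr15a was not limited to these low libraries. GR mutant betamethasone libraries 16, 18, 20 and 22 matched, as did 5, 6 and 23, and 4 and 10. Wild-type control libraries 8, 14 and 23 matched, as did 13 and 22. With matching libraries averaged to 1 value, the difference at chr15a was -6.56 points (4 against 9 values; exact permutation p = 0.127, adjusted p = 0.361). With runs of consecutive replicate numbers averaged, it was -10.9 points (3 against 6 values; exact permutation p = 0.0357, adjusted p = 0.148). Both averages were chosen after seeing the data. Matching was judged on the counts at chr15a itself, so libraries that read alike there weighed less. The call was also lost with a minimum of 100 reads and without libraries above 2% non-CpG calls, at -11.4 and -10.6 points (adjusted exact permutation p = 0.0600 and 0.0587). Over the whole series the 2% limit removed 10 of 24 wild-type control and 5 of 24 GR mutant control libraries.

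**Figure D4:**
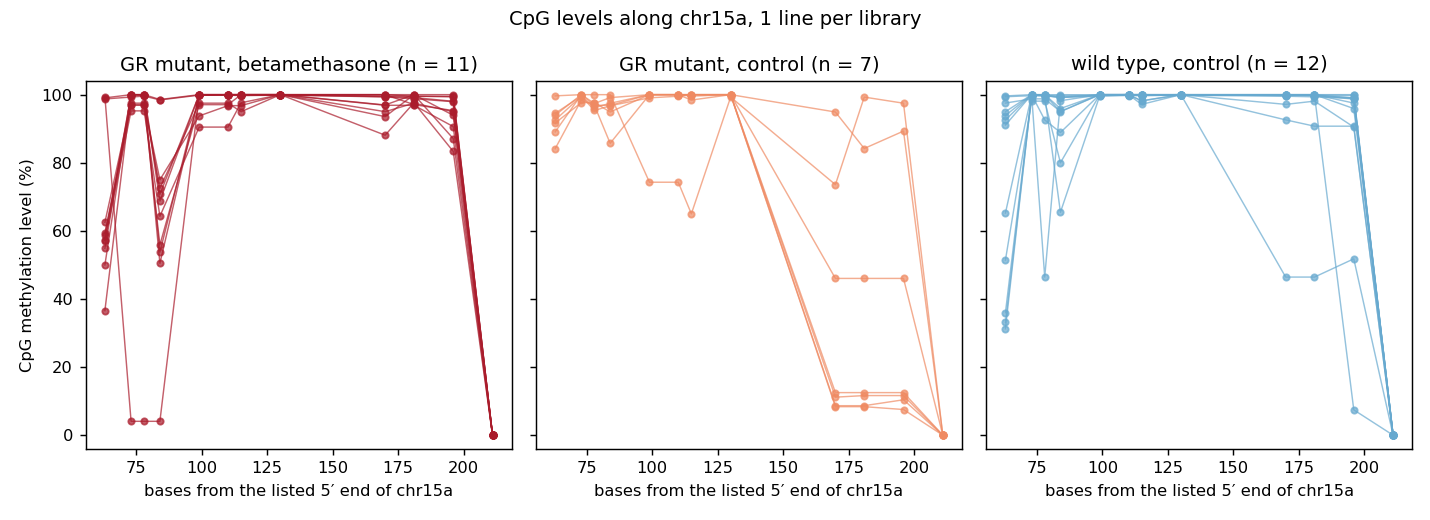
Methylation level (%) of the 12 CpGs of chr15a by distance in bases from its listed 5′ end, with 1 line per library, for GR mutant betamethasone (n = 11), GR mutant control (n = 7) and wild-type control libraries (n = 12). In GR mutant control libraries 4, 5, 6 and 19 the 3 CpGs before the last one read 7.53% to 12.5%, and the last CpG is near 0% in every library.

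Other differences between GR mutant and wild-type control libraries were smaller than their errors or did not pass the adjustment. They were 2.80 points at chr9b (80.05% ± 3.11, n = 5, against 77.2% ± 9.18, n = 13; SE 2.90; adjusted exact permutation p = 1.0) and -1.68 at chr15b (91.0% ± 13.8, n = 13, against 92.7% ± 9.42, n = 8; SE 5.08; adjusted exact permutation p = 1.0). At chr6a the GR mutant control libraries 1, 2, 17, 18, 21 and 22 read 0.208%, 0.0%, 2.81%, 1.52%, 2.85% and 2.25%, and the 6 wild-type control libraries from 0.0% to 0.694%. The difference was 1.40 points (1.61% ± 1.26 against 0.208% ± 0.326, n = 6 each; SE 0.532; exact permutation p = 0.0390, adjusted p = 0.124). Without GR mutant control library 2 it was 1.72 points with an adjusted permutation p of 0.0312, and with runs of consecutive numbers averaged to 3 against 3 values it was 1.40 points (exact permutation p = 0.3, adjusted p = 0.896), where 0.1 is the smallest p that 3 against 3 allows.

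Between betamethasone libraries of GR mutant and wild-type larvae, 0 of 3 off-target regions were called by the permutation test, where 18.2% of all 11 regions tested were. At an unadjusted p below 0.05 the count was 1, the beta-binomial test called 0 and the quasi-binomial test 2. The differences were 12.5 points at chr15b (97.5% ± 4.25, n = 9, against 85.02% ± 19.7, n = 11; SE 6.11; adjusted exact permutation p = 0.225), 8.07 at chr9b (80.3% ± 3.24, n = 8, against 72.2% ± 10.7, n = 8; SE 3.97; exact permutation p = 0.0443, adjusted p = 0.125) and 0.00658 at chr25a (100.0% against 100.0% ± 0.0190, n = 8 and 14; adjusted exact permutation p = 0.819). Without wild-type betamethasone library 24 the difference at chr9b was 9.69 points with an adjusted permutation p of 0.0473. With runs averaged it was 4.59 points (adjusted exact permutation p = 0.567). With matching libraries averaged it was 15.1 points (2 against 4 values, adjusted exact permutation p = 0.419). Those values have 15 splits, too few for a p of 0.05, so this test could not call the region. With runs averaged the difference at chr15b was 3.34 points (5 against 4 values; exact permutation p = 0.548, adjusted p = 0.693). None of the 13 CpGs tested was called, where 7.94% of all 63 were, and 1 had an unadjusted p below 0.05; the beta-binomial test called 0 and the quasi-binomial test 3.

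**Figure D5:**
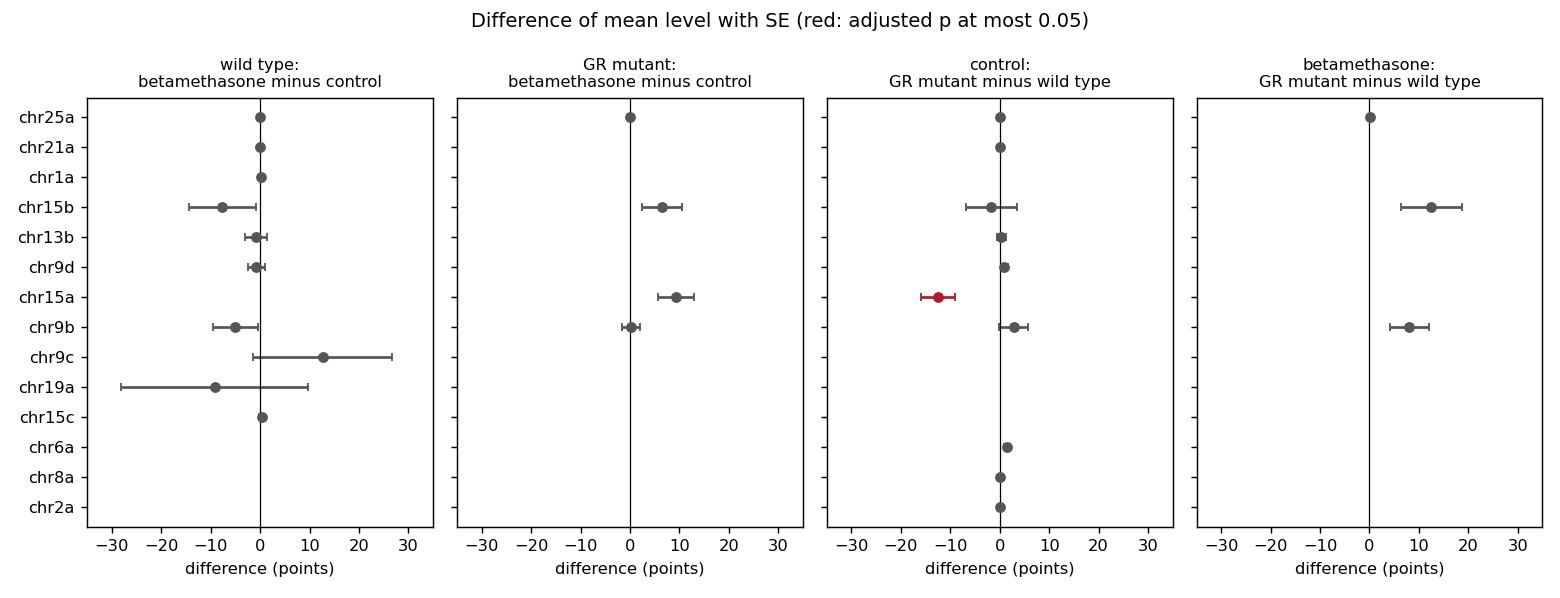
Difference of mean methylation level (percentage points, with its SE) in the 27 tests of off-target regions, by comparison; red marks an adjusted p of at most 0.05. Most points lie within 1 SE of 0, and the red point is chr15a in GR mutant minus wild-type control libraries, at -12.4 points.

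No region had 10 libraries in each group, so whether the betamethasone difference depends on genotype was not tested at any off-target region. Of the 32 regions, 18 entered no comparison and are described by their levels alone.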

How the data were processed

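The 96 libraries were read by bisulfite amplicon sequencing. BS-Seeker2, cutadapt and FastQC are the tools named, and GRCz10 the build, per the submitters' processing notes. Their versions and settings were not given in the sources used here. For each library the authors deposited 1 table of cytosine calls, with strand, context, a methylation level as a fraction, a count of methylated reads and a count of all reads per cytosine. The deposited fractions differed from the ratio of the deposited counts by more than rounding (0.0051) at 0 cytosines, and the counts were used.

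Groups and replicate numbers came from the labels, and 0 columns belonged to other samples. The off-target regions, the region names given in the text and the comparisons were chosen with earlier results of these data known. The 8 amplicon spans were runs of cytosines with at least 30 reads in 48 or more libraries, joined up to 100 bp, that held a CpG. A region's level in a library was its methylated reads over its reads, summed over CpGs with at least 30 reads. Groups with at least 5 libraries each were compared by a two-sided permutation test of mean levels with 1 value per library, all splits enumerated where a group had fewer than 10 libraries and 100000 resamples otherwise, with Benjamini-Hochberg adjustment over every region, or every CpG, of a comparison and a threshold of 0.05. The scripts were tested on simulated data. A genotype by treatment test needed 10 libraries in each group and was not run.

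Regions were named in the text if past the threshold, among the 10 covered most often, among the 3 largest differences not past the threshold in a comparison, among the 3 largest or smallest SDs with 20 or more libraries, matched to an amplicon at 80% or more of listed cytosines, or at the limit of the rule. The minimum of 20 listed cytosines for a pattern match was chosen after seeing the data. Regions outside this rule are given in counts, except chr13c and chr20b, named after their values were seen, and the chromosome 2 amplicon was set beside the 6 regions after seeing the data. Wilson 95% intervals used reads per CpG. A count of 0 was read as up to 3 counts of the total. Alternatives were other read minimums (10 and 100), other joining distances (50 and 300 bp), the mean of CpG levels, libraries with every CpG, beta-binomial and quasi-binomial tests, libraries above 2% non-CpG calls left out, a replicate block, and each library left out, with the amplicons' p-values kept from the full set. Python 3.11.15, numpy 2.4.6, pandas 2.3.3, scipy 1.17.1, numba 0.67.0 and matplotlib 3.10.9 were used.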

Additional observations from a re-analysis of the deposited data

Results flagged for a closer look

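In 29 pairs of a region and a group with 4 to 10 libraries, a library was marked where its gap to the nearest other library was larger than Dixon's 95% limit for the group's range. Of the 29 pairs 9 were marked, in 6 regions. Chance marks about 1 in 20 groups only where values are independent and normally distributed. The marked groups of chr2a, chr8a and chr13a lay at the lowest or highest possible level, where very few reads can make a mark. At chr2a it was 1 methylated read among the 319 of GR mutant control library 22. The marks at chr13b repeat those at chr9d, so the count of 9 is not compared with the chance rate.

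At chr9d, wild-type betamethasone library 4 read 76.82% where the nearest library read 88.69%, and GR mutant betamethasone library 4 read 86.61% where the nearest read 91.47%. At chr13b, whose letters are the same as those of chr9d, the same libraries read 76.51% (nearest 88.36%) and 86.97% (nearest 91.64%), so these are not independent. The Wilson interval of library 4 at chr9d ran from 67.2% to 83.8% in the wild-type and from 74.7% to 92.7% in the GR mutant group.

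At chr15b, GR mutant betamethasone library 1 read 86.81% where the nearest read 95.39%, with a Wilson interval from 80.05% to 91.5%. The other marked libraries differed by less than 1 percentage point from their group. At chr8a, GR mutant control library 15 read 0.2049% (nearest 0.0892%) and wild-type control library 9 read 0.2841% (nearest 0.0552%). At chr2a, GR mutant control library 22 read 0.3135% where the others of its group read 0.0%. At chr13a, wild-type betamethasone library 22 read 99.91% where the others read 100.0%.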

How the results depend on the processing

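Of the counts of calls under planned and added settings, 50 stayed within 1.5 times the reported count and 22 did not. The 50 include counts of 0 that stayed 0. For regions these were 11 settings in wild-type larvae, 12 in GR mutants and 10 between betamethasone groups, and for CpGs 4 between betamethasone groups. Between controls, the only comparison with a called region, the region count stayed in 6 settings and moved in 6. CpG counts stayed and moved in 0 and 6 settings in wild-type larvae, 4 and 2 in GR mutants, and 3 and 3 between controls. The replicate block is counted too. Of the differences at named regions, 121 kept their direction and side of the threshold. Between betamethasone and control libraries of wild-type larvae, called off-target CpGs numbered 5 with a minimum of 10 reads, 0 with 100 reads, 1 by the beta-binomial test, 6 by the quasi-binomial test and 0 without libraries above 2% non-CpG calls, and called regions 2 by the quasi-binomial test. In the GR mutants the CpGs numbered 0 with 100 reads. Between GR mutant and wild-type controls, called regions numbered 2 with 10 reads and 0 with 100 reads. They also numbered 0 without libraries above 2% non-CpG calls, with matching libraries averaged and with runs of numbers averaged. With runs averaged, too few values were left for chr15a to be called. Called CpGs numbered 5 with 10 reads and 5 by the quasi-binomial test. Between the betamethasone groups, regions numbered 2 with 10 reads and 2 by the quasi-binomial test, and CpGs 1 and 3. The share called over all regions or CpGs, amplicons included, was not counted under these settings. Whether these counts lie above or below that share is therefore not stated. The cause of the shifts in these counts was not tested, except that a minimum of 100 reads and the limit of 2% non-CpG calls leave fewer libraries. The 2% limit removed 10 wild-type control, 5 GR mutant control, 2 wild-type betamethasone and 1 GR mutant betamethasone libraries.

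The difference at chr15a between GR mutant and wild-type controls was -11.4 points with 100 reads (adjusted permutation p = 0.0600), -10.6 without libraries above 2% non-CpG calls (0.0587), -6.56 with matching libraries averaged (0.361) and -10.9 with runs averaged (0.148). Between wild-type betamethasone and control libraries chr9c turned to -2.56 points with 10 reads and -5.80 with runs averaged, and chr15b to 2.00 with runs averaged. In the GR mutants chr9b turned to -0.0473 as a mean of CpG levels. The quasi-binomial test gives differences of pooled reads, not of library means, so deep libraries weigh most. At 20076378 of chr15b, wild-type betamethasone libraries 15 and 16 read 3.26% and 1.43% on 1320 and 1192 reads. The other libraries of that group held 31 to 192 reads there. By pooled reads this test called chr9c (45.5 points), chr15b (-36.0) and, between the betamethasone groups, chr15b (37.5) and chr9b (21.2). With 10 reads chr9b was among the regions that passed between the betamethasone groups, at 7.60 points (adjusted permutation p = 0.00900).

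With each library left out in turn, called regions numbered 0 to 0 between betamethasone and control libraries of wild-type larvae, 0 to 1 in the GR mutants, 1 to 2 between controls and 0 to 1 between betamethasone groups, and called CpGs 1 to 3, 3 to 5, 2 to 5 and 0 to 1. The chr15a difference between controls ran from -14.7 to -11.4 points. In the GR mutants chr15a ran from 8.28 to 11.6, chr15b from 3.20 to 7.88 and chr9b from -0.868 to 1.06. In wild-type larvae chr9c ran from 4.06 to 20.3, chr19a from -15.8 to 2.41 and chr15b from -10.2 to -4.22. Between controls chr15b ran from -4.24 to 1.65, chr6a from 1.15 to 1.72 and chr9b from 0.639 to 3.92. Between betamethasone groups chr15b ran from 9.08 to 14.0, chr9b from 4.96 to 9.69 and chr25a from 0.00176 to 0.00709.

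The labels do not say that replicate numbers pair the libraries, and not every same-numbered pair deviated together. The correlation of their deviations averaged 0.0895 in the wild-type comparison (over 0.1 in 12 of 19 numbers), 0.220 in the GR mutants (14 of 21), 0.0484 between controls (9 of 19) and -0.145 between betamethasone groups (6 of 21), against -0.00985, -0.00724, -0.00337 and 0.0109 for pairs with different numbers. The numbers were therefore not taken as pairs, although in the GR mutants most same-numbered pairs deviated together. With a replicate block 0 regions and 0 CpGs were called in each comparison, but shared numbers left only 3 regions to test in wild-type larvae, 2 in GR mutants, 2 between controls, without chr15a, and 1 between betamethasone groups, so this says nothing about stability. Depth limits single values, since a region at 30 reads per CpG has an interval of up to 16.8 points on either side.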
